A study of Mus musculus with 6 samples.

Results

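The nuclear genes for the respiratory chain and ATP synthase were taken from a table of gene expression in male and female mouse liver. Members were all rows whose symbol starts with Nduf, Uqcr, Atp5, Cox4, Cox5, Cox6, Cox7 or Cox8, together with Sdha, Sdhb, Sdhc, Sdhd, Cyc1 and Cycs. This gave 94 of the 24197 genes in the table, and the rule uses gene symbols only. By role they were placed as 36 subunits of complex I, 8 assembly factors of complex I, 4 subunits of complex II, 10 genes of complex III with cytochrome c, 20 genes of complex IV and its relatives, and 16 genes named for complex V. The groups were liver of intact male CD-1 mice aged 7 to 9 weeks and liver of intact female CD-1 mice aged 7 to 11 weeks, CD-1 being an outbred stock. Each group had 3 libraries of poly-A selected RNA, with 17 livers in each male pool and 12 in each female pool, so sex cannot be told apart from age range and pool size. The question was which genes differ between the sexes. Each value below is the authors' mean FPKM (fragments per kilobase, scaled to the size of the library) over the 3 pools of a sex. It comes from gene bodies or from introns only, and the length used for each is not given here. The pools' own values are not analysed here, and therefore no mean carries a standard deviation, and the authors' adjusted p-value is the only measure that reflects the spread between pools.

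Mitochondria pass electrons from NADH through complex I, and from succinate through complex II, to coenzyme Q, then through complex III and cytochrome c to complex IV, which reduces oxygen. Complexes I, III and IV pump protons across the inner membrane, and complex V lets them back to make ATP. Most subunits are encoded in the nucleus, while the mitochondrial genome encodes a small set of core subunits. Hepatocytes are rich in mitochondria and spend this ATP on urea synthesis, gluconeogenesis and protein secretion.

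Hepatocyte markers were abundant in both sexes, among them Alb at 12608 FPKM in males and 19411 FPKM in females and Hnf4a at 65.9 and 70.8 FPKM. Of 7 such markers, Apoa1 and Serpina1c passed the threshold toward male liver in the authors' deposited table. Alb and Cps1 passed toward female liver, and the others did not pass. Xist was at 0.0199 FPKM in males and 22.5 FPKM in females, and the Y-linked Ddx3y at 9.60 and 0.0303 FPKM. Library totals recovered from lone reads were 28415535 to 42673908 reads in male and 28358105 to 41206357 reads in female pools. Markers of other cells also differed. In the authors' deposited table all 4 Kupffer cell markers passed the threshold toward female liver (summed level 29.6 FPKM in males and 51.0 FPKM in females), as did Lrat and Reln among 4 stellate cell markers. All 3 erythroid markers passed toward male liver by the authors' deposited table (summed level 169 FPKM in males and 91.3 FPKM in females). None of 3 endothelial and 3 bile duct markers passed. Their part in the results below was not tested, and in bulk tissue fewer cells of a type and less RNA per cell cannot be told apart.

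Most respiratory genes were expressed at high levels, 77 of 94 at a mean of 10 FPKM or more, with nearly equal values in the sexes. With 0.05 as the limit on the adjusted p-value, the authors' deposited table held 2 members higher in male liver, Ndufa8 and Uqcr10, and 1 member higher in female liver, Atp5s, and the other 91 did not pass. These 3 are 3.19% of the 94 members, beside 7.47% of all 24197 genes. Among the 17997 genes above 0 in either sex 10% were called. Split by direction, 4.61% of those genes were called toward males and 5.44% toward females. Of the members, 92 were above 0 and 88 had a mean over both sexes of at least 0.5 FPKM, the level counted as measured. Among the 10936 measured genes 13.8% were called, 6.68% toward males and 7.14% toward females, beside 3.41% of the 88 measured members. At a mean of at least 10 FPKM, where reads are more plentiful, 2 of 77 members were called, or 2.60%, beside 20.7% of 2597 genes, of which 11.0% were called toward males and 9.7% toward females. A p that missed the threshold does not show that the sexes were equal.

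**Figure D1:**
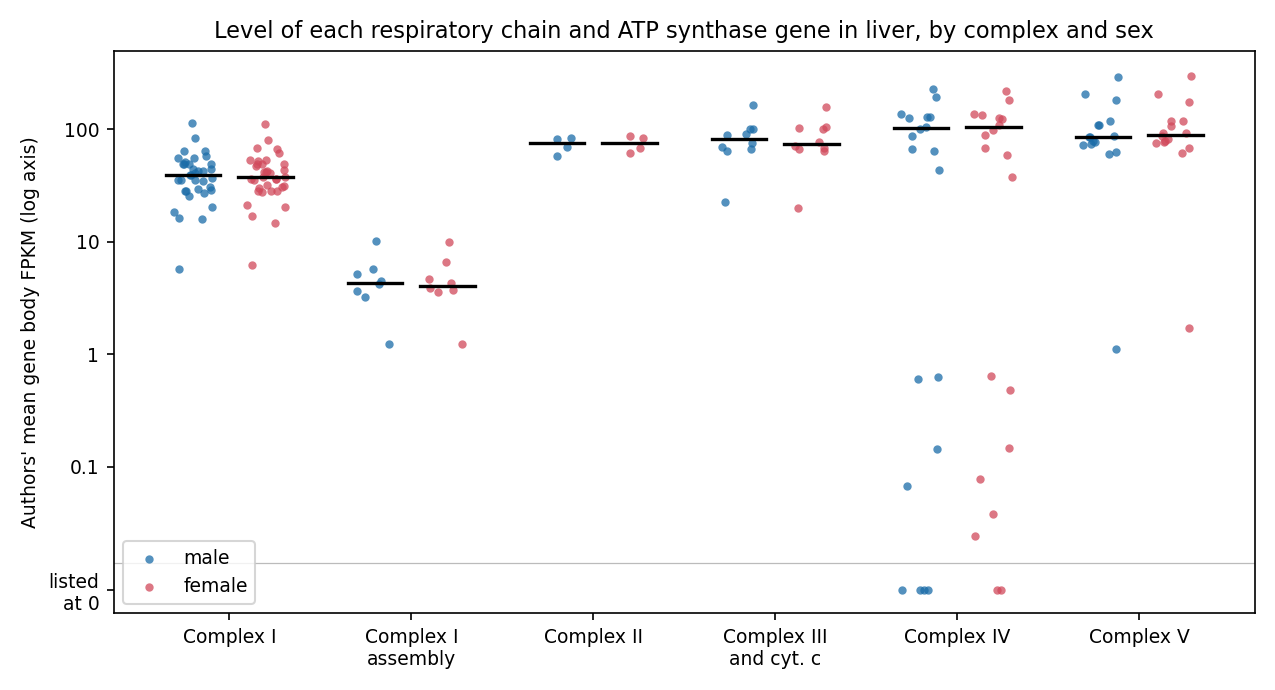
Authors' mean gene body FPKM of each of the 94 members on a log axis, by complex, with male liver left of female liver; each point is 1 gene and each bar is the median of members at 0.5 FPKM or more. For complex I the medians are 39.1 FPKM in males and 37.9 FPKM in females, for complex III 82.0 and 74.3 FPKM and for complex V 85.5 and 89.6 FPKM, and the low points of complex IV are isoforms of other tissues.

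The ratios were also closely packed. By the authors' deposited table, 86 of 88 measured members, or 97.7%, had a male over female ratio within 1.25-fold of 1, against 79.7% of all measured genes. The exceptions were Atp5s at a ratio of 0.690 and Ndufa4l2 at 1.29 in the authors' deposited table. The middle 50% of the members' log2 ratios ran from -0.02 to 0.10, and that of all measured genes from -0.13 to 0.14. The median log2 ratio of the measured members was 0.04 with the authors' scaling, against 0.01 for all measured genes, and -0.01 from the mean FPKM as listed, against -0.04 for all measured genes. The sign thus turned with a scaling that moved all genes alike. After quantile normalization of the means the members' median was 0.01, against 0.02 for all measured genes, so the order of members and all genes also depended on the scaling. A ratio above 1 was given for 61 of 88 members by the authors' deposited table, against 5825 of 10936 measured genes. By the listed FPKM 40 of 88 members were higher in male liver, against 4583 of 10936 measured genes. With both sets limited to genes averaging 10 FPKM or more, the authors' scaling gave median log2 ratios of 0.046 for 77 members and 0.042 for 2597 genes. The gap in medians was thus smaller among abundant genes. Ratios above 1 were given there for 56 of 77 members and 1557 of 2597 genes. All 77 members lay within 1.25-fold of 1, against 81.4% of those genes.

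**Figure D2:**
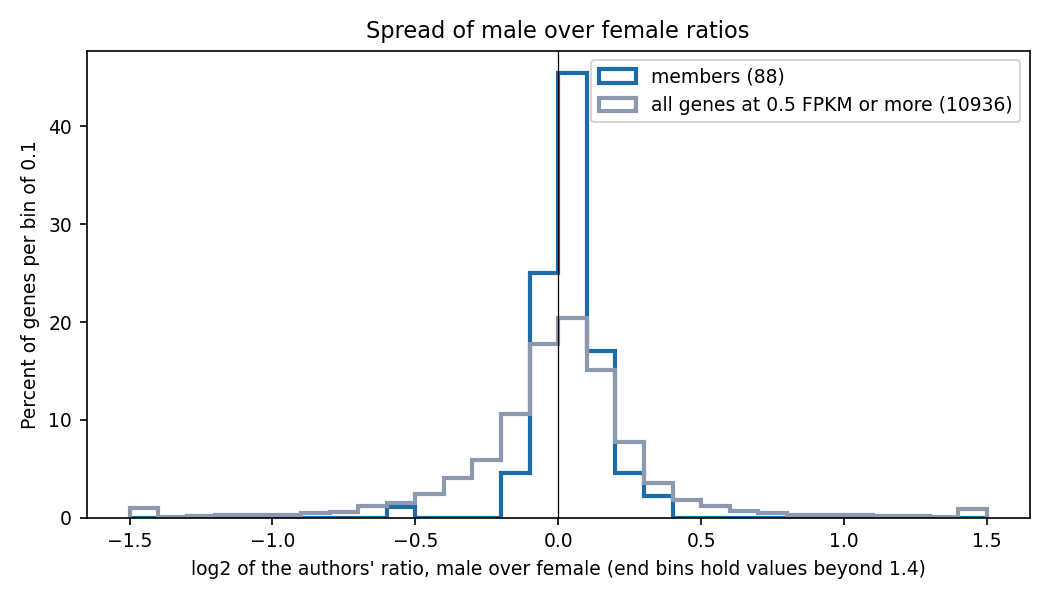
Percent of genes in bins of 0.1 of the log2 male over female ratio in the authors' deposited table, for the 88 measured members and all 10936 measured genes, with the end bins holding values farther out. The members sit in a narrow peak around 0, and Atp5s is the lone member below -0.5.

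Promoter sequence gives a feature that the choice of members did not use. Of the 94 members 77 matched RefSeq promoters of assembly GRCm38.p6, 83 promoters in all, each spanning 250 bases before to 50 after the start. Their median GC content was 58.3% and they held a median of 20 CpG dinucleotides, beside 52.7% and 7 for all 32851 promoters. Exact matches were counted on either strand for sites of factors known to act on respiratory genes. The NRF1 motif GCATGCGC was in 13 of 83 member promoters, 15.7% against 2.71% of all promoters. The YY1 motif AAGATGGC was in 12 promoters of 11 genes, 14.5% against 2.75%, with 1 site shared by both promoters of Atp5sl. Of the 11 distinct sites 9 lay within 50 bases after a start. The ETS motif CCGGAAG, the family of GABPA, was in 17, 20.5% against 8.86%, and it can overlap the YY1 motif at AAG. At least 1 of these was in 36 member promoters, 43.4% against 13.3%. The SP/KLF motif GGGGCGGGG was in 13 member promoters, 15.7% against 11.4%, and the CCAAT motif in 36, 43.4% against 37.4%. The TATAAA motif was in 8, 9.64% against 13.6%. The ERRA motif TCAAGGTCA was in only 2, those of Atp5g3 and Sdhd, 2.41% against 0.423%. All promoters were not matched to the members for CpG content or expression, and the NRF1, ETS and SP/KLF motifs contain CG. Whether these shares differ from those of other CpG-rich promoters was not tested. A match is a description of letters and not a bound site.

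**Figure D3:**
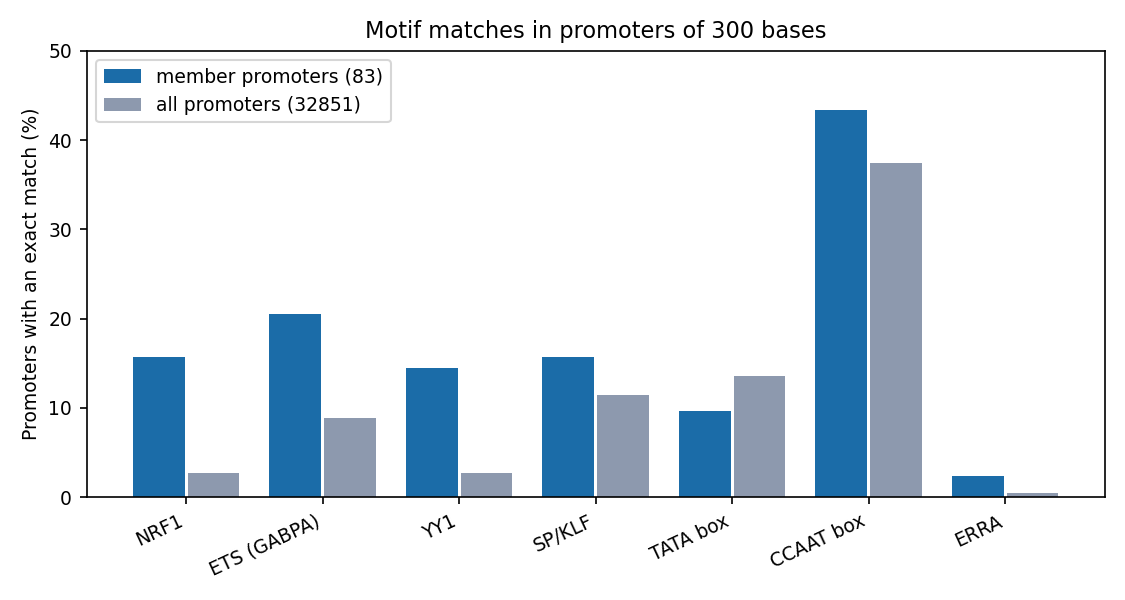
Percent of promoters of 300 bases with an exact match to each motif, for the 83 promoters of members and for all 32851 promoters in the RefSeq table. The NRF1 bars stand at 15.7% and 2.71% and the YY1 bars at 14.5% and 2.75%. Matches to TATAAA, at any position and on either strand, are at 9.64% and 13.6%.

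The sequences below show such matches in promoters of Cox6a1, Cycs, Ndufa8 and Atp5j and the absence of them upstream of Uqcr10 and Atp5s, which with Ndufa8 are the members that passed. Each runs 5′ to 3′ on the strand of the gene and ends at the base before the start, from RefSeq on GRCm38.p6. Capitals mark the NRF1, YY1 and ETS motifs, and in Cox6a1 matches to NRF1 on each strand overlap.

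Cox6a1, chr5:115348959-115349138, minus strand: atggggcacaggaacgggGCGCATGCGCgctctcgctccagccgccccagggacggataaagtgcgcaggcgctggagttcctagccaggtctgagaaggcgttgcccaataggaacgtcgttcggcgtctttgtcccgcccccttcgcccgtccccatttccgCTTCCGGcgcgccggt
Cycs, chr6:50566570-50566719, minus strand: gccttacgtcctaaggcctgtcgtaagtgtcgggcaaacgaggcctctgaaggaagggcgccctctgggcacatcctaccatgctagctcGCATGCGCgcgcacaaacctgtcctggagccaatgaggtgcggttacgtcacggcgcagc
Ndufa8, chr2:36049339-36049488, minus strand: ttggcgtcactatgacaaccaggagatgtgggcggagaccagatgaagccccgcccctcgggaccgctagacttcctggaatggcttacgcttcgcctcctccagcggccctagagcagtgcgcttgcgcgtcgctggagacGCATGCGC
Atp5j, chr16:84834977-84835126, minus strand: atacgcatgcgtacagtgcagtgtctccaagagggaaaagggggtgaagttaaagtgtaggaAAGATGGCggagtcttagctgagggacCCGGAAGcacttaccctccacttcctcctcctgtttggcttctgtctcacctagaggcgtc
Uqcr10, chr11:4704345-4704494, minus strand: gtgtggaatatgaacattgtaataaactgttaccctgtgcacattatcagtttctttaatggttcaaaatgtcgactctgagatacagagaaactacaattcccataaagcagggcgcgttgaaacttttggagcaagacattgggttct
Atp5s, chr12:69724795-69724944, plus strand: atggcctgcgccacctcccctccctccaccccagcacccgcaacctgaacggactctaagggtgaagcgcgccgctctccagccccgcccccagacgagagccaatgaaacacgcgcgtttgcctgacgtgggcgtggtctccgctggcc

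In Ndufa8 the NRF1 motif covered the last 8 bases before the start. The YY1 and ETS motifs of Atp5j lay in the second of its promoters. Atp5j overlaps the row of Gabpa, the gene of the ETS factor itself, which had 5.54 FPKM in males and 5.94 FPKM in females. The 150 bases upstream of Uqcr10 had a GC content of 38.7% and 3 CpG dinucleotides, against 64.0% and 14 upstream of Ndufa8. In the longer windows used for the motif counts, the values were 43.3% and 13 for Uqcr10 and 58.3% and 19 for Ndufa8. Both CpG counts in those windows were above the median of 7 for all promoters. Both genes passed toward male liver, and whether promoter composition bears on this was not tested.

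Promoters of a broad and a restricted isoform can be set side by side for Cox7a and Cox8. In the sequences that follow, given in the same way, capitals mark CpG dinucleotides.

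Cox7a2, chr9:79759854-79760003, minus strand: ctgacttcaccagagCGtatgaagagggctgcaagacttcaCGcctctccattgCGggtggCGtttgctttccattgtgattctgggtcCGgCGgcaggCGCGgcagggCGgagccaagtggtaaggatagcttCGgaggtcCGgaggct
Cox7a1, chr7:30184021-30184170, plus strand: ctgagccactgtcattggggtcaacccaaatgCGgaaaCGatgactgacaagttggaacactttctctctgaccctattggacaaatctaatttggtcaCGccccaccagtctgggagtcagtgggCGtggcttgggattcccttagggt
Cox8a, chr19:7217617-7217766, minus strand: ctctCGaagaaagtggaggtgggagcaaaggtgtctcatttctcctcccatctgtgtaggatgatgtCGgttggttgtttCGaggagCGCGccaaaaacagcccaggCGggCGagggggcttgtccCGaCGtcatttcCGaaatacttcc
Cox8b, chr7:140900447-140900596, minus strand: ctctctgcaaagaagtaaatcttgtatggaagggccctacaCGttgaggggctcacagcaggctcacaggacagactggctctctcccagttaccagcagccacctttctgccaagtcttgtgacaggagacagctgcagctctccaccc

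The 150 bases upstream of Cox7a2, at 63.8 FPKM in males and 59.2 FPKM in females, held 11 CpG dinucleotides, and those upstream of Cox7a1 held 4. Cox8a, at 106 FPKM in males and 109 FPKM in females, had 10, and Cox8b, listed at 0 in male and at 0.0240 FPKM in female liver, had 1. Over the 300-base windows, promoters of 4 restricted isoforms held between 2 and 10 CpG dinucleotides, and those of the other 73 matched members between 5 and 43. The ranges overlap, and 4 promoters are too few to describe the class.

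Complex I, the NADH dehydrogenase, had subunit transcripts at a median of 39.1 FPKM in males and 37.9 FPKM in females. The 7 nuclear core subunits, which include those that carry the flavin and the iron-sulfur clusters, ran from 20.3 to 55.5 FPKM in male and from 20.4 to 53.9 FPKM in female liver. Ndufs1, which holds several of the clusters, was the lowest core gene at 20.3 FPKM in males and 20.4 FPKM in females. Ndufs3 was the highest at 55.5 FPKM in males and 53.9 FPKM in females. All 7 core genes had ratios between 1.01 and 1.08 in the authors' deposited table and none passed the threshold. As listed FPKM, 5 of these 7 were higher in male liver.

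The 29 accessory subunits surround the core and stabilise it. Ndufb9, a small subunit of the membrane arm, was the most abundant at 113 FPKM in males and 111 FPKM in females. Ndufa6 followed at 83.7 FPKM in males and 81.1 FPKM in females, and Ndufb8, often used as an antibody marker of the assembled complex, stood at 63.7 FPKM in males and 68.6 FPKM in females. Ndufa11, a membrane subunit, was the lowest of all complex I subunits at 5.73 FPKM in males and 6.20 FPKM in females. Ndufs4, whose loss is used as a mouse model of Leigh syndrome, was next at 15.99 FPKM in males and 14.8 FPKM in females. Among X-linked members, Ndufa1 had a ratio of 1.10, Ndufb11 of 1.03 and Cox7b, of complex IV, of 1.01 in the authors' deposited table, and none passed the threshold.

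Ndufa8 was the complex I member that passed. It encodes an accessory subunit that takes up disulfide bonds on import into the space between the membranes (chromosome 2, 35891854 to 35904812, build mm9). Its authors' mean was 42.5 FPKM in males and 36.1 FPKM in females. In the authors' deposited table its ratio was 1.22 with an adjusted p of 0.0356. Its introns had 0.178 FPKM in males and 0.158 FPKM in females, with a ratio of 1.246 and an adjusted p of 1 in the authors' deposited table. Ndufa7 lay at the other end of complex I, at 18.6 FPKM in males and 21.2 FPKM in females. Its ratio of 0.907 in the authors' deposited table had an adjusted p of 0.744.

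Assembly factors of complex I, which build the complex and then leave it, were lower than the subunits, with a median of 4.33 FPKM in males and 4.08 FPKM in females. Ndufaf1, a chaperone of the membrane arm, led at 10.2 FPKM in males and 10.03 FPKM in females. Ndufaf2 was second at 5.71 FPKM in males and 6.58 FPKM in females, and Atp5sl, now named Dmac2 and linked in human cells to assembly of complex I despite its old name, came next at 5.13 and 4.69 FPKM. Ndufaf5, a methyltransferase-like protein that hydroxylates a core subunit, was the lowest at 1.245 FPKM in males and 1.23 FPKM in females, below Ndufaf7 at 3.20 and 3.61 FPKM. None of the 8 factors passed the threshold. Ndufaf4 came closest, at 4.46 FPKM in males and 3.74 FPKM in females, with a ratio of 1.24 and an adjusted p of 0.0996 in the authors' deposited table. The lowest ratio was that of Ndufaf2, 0.898 with an adjusted p of 0.863 in the authors' deposited table.

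Complex II is succinate dehydrogenase, an enzyme of the citric acid cycle as well as of the chain. Its 4 genes ran from 58.5 to 84.6 FPKM in male and from 61.7 to 86.7 FPKM in female liver. Sdha, the flavoprotein, had 84.6 FPKM in males and 84.1 FPKM in females, and Sdhb, which carries the iron-sulfur clusters, had 82.5 and 86.7 FPKM. The membrane anchors were lower, Sdhc at 58.5 FPKM in males and 61.7 FPKM in females and Sdhd at 70.3 and 68.3 FPKM. Their ratios ran from 0.982 for Sdhc to 1.07 for Sdhd in the authors' deposited table, and none passed.

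Complex III hands electrons from coenzyme Q to cytochrome c. Uqcr10, a small subunit of the membrane part (chromosome 11, 4601971 to 4604347, build mm9), had 91.2 FPKM in males and 76.9 FPKM in females. Its ratio of 1.23 had an adjusted p of 0.0258 in the authors' deposited table, the lowest p among the 94 members. The introns of Uqcr10 had 0.636 FPKM in males and 0.518 FPKM in females, and the authors' deposited table gave a ratio of 1.36 with an adjusted p of 0.875. Uqcrb, which helps to form the site where coenzyme Q binds, had the lowest ratio of the group, 0.901 in the authors' deposited table, at 88.9 FPKM in males and 102 FPKM in females. Its adjusted p of 0.494 in the authors' deposited table did not pass. So the pair of small subunits lay on opposite sides of 1, and their difference was not tested.

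None of the remaining genes of complex III passed the threshold. Uqcrq was the most abundant at 164 FPKM in males and 157 FPKM in females, followed by Uqcrh at 101 and 105 FPKM and Uqcr11 at 101 and 101 FPKM. Uqcrc1 had 67.3 FPKM in males and 63.8 FPKM in females, Uqcrc2 64.4 and 66.3 FPKM, and Uqcrfs1, the Rieske iron-sulfur protein, 69.8 and 71.7 FPKM. Cyc1, the cytochrome c1 of the complex, had 75.1 FPKM in males and 68.8 FPKM in females with a ratio of 1.13 and an adjusted p of 0.354 in the authors' deposited table. Cycs, the mobile cytochrome c that also triggers apoptosis when released, had 22.7 FPKM in males and 20.1 FPKM in females with a ratio of 1.17 and an adjusted p of 0.1002 in the authors' deposited table. Cycs was the lowest gene of this group in both sexes.

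Complex IV, cytochrome c oxidase, draws several of its nuclear subunits from pairs of genes, one broadly expressed and the other restricted to muscle, testis, lung or other tissues. Liver used the broad forms. The 11 broadly expressed genes ran from 63.8 to 230 FPKM in male and from 59.2 to 217 FPKM in female liver. Ndufa4, first described with complex I and later assigned to complex IV, was the most abundant at 230 FPKM in males and 217 FPKM in females. Cox4i1 was second, at 194 FPKM in males and 183 FPKM in females, followed by Cox6a1 at 138 and 136 FPKM. None of the 11 passed, with ratios from 0.985 for Cox7c to 1.12 for Cox7a2 in the authors' deposited table.

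The restricted isoforms were low or listed at 0. Cox4i2, the isoform known from lung, had 0.0673 FPKM in males and 0.0779 FPKM in females, 0.0347% and 0.0425% of Cox4i1. The row of Cox4i2 overlaps Bcl2l1, at 4.17 FPKM in males and 4.41 FPKM in females. Cox6a2 and Cox8b, the isoforms of heart and skeletal muscle, were listed at 0 in male and at 0.0378 and 0.0240 FPKM in female liver. Cox7a1, the muscle and brown fat isoform, was the highest of the COX isoforms, at 0.607 FPKM in males and 0.639 FPKM in females, or 0.951% and 1.08% of Cox7a2. The testis isoforms Cox7b2 and Cox8c were listed at 0 in both sexes, and Cox6b2, also of testis, was at 0.143 FPKM in males and 0.146 FPKM in females. Introns of Cox6b2 had 0.0656 FPKM in males and 0.0715 FPKM in females, 46.0% and 49.0% of its gene body values. Its row has 2 locations, and whether its signal is spliced transcript was not tested. Ndufa4l2, a paralog of Ndufa4 induced by hypoxia, had 0.632 FPKM in males and 0.482 FPKM in females, with a ratio of 1.29 and an adjusted p of 0.824 in the authors' deposited table. Its row overlaps Shmt2, which stood at 35.3 FPKM in males and 37.4 FPKM in females. The libraries keep strand per the labels, and whether the counting used it was not stated there. Summed, the 7 restricted COX isoforms came to 0.817 FPKM in males and 0.924 FPKM in females, beside 698 and 681 FPKM for the 6 broad genes they stand in for. One read on a transcript of 500 bases in 1 pool adds 0.0156 to 0.0235 FPKM to a mean, so the values of Cox6a2 and Cox8b are of the order of single reads. Of 6 muscle markers, Acta1, Ckm, Myh7 and Myl1 were listed at 0 in both sexes, and the 6 summed to 0.0578 FPKM in males and 0.0953 FPKM in females. Ucp1 and Cidea, of brown fat, and Prm1 and Tnp1, of testis, were also listed at 0 in both sexes.

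**Figure D4:**
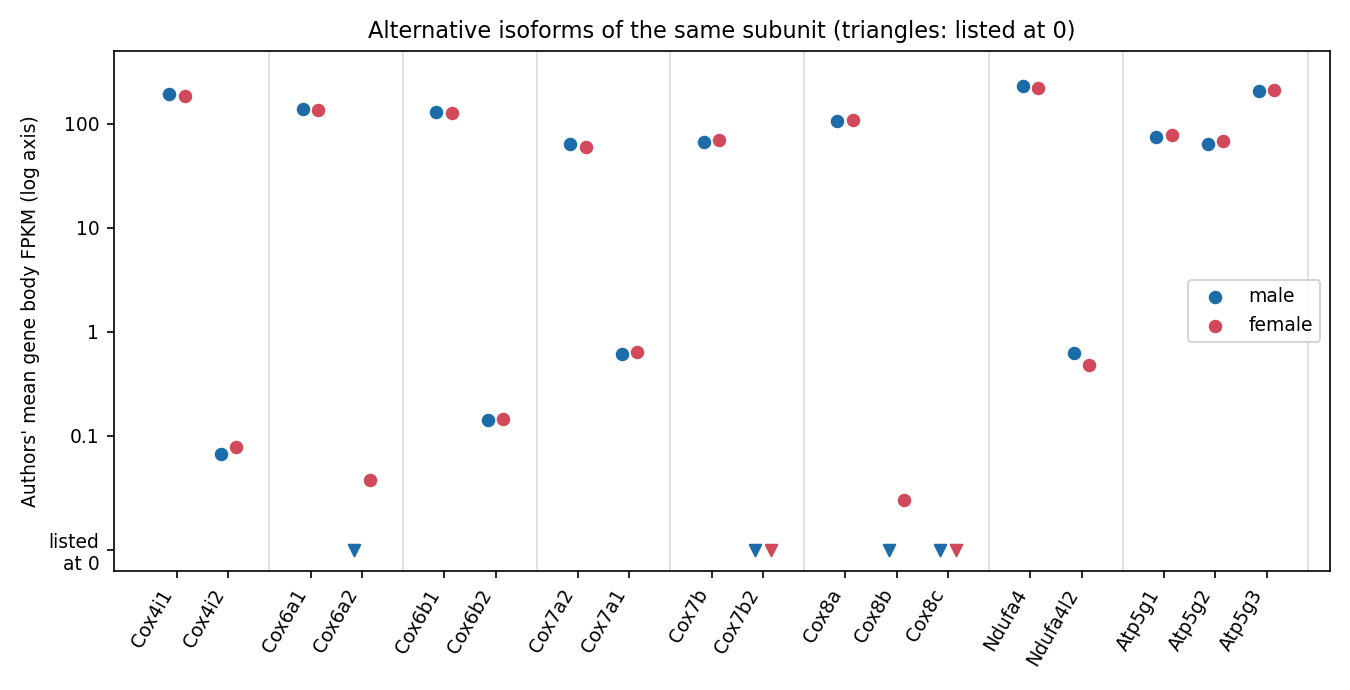
Authors' mean gene body FPKM on a log axis of genes that encode alternative forms of a subunit, with male left of female for each gene; triangles mark genes listed at 0. The broadly expressed forms lie between 59.2 and 230 FPKM, the restricted forms at or below 0.639 FPKM, and the c ring genes are all above 60 FPKM.

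Cox7a2l, related to Cox7a2 in sequence, is known for joining complexes III and IV into supercomplexes. It had 43.1 FPKM in males and 37.4 FPKM in females. Its ratio was 1.20 in the authors' deposited table and its adjusted p of 0.0650 was the closest to the threshold among members that did not pass.

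Complex V, the ATP synthase, is a rotary machine with a catalytic head of several alpha and beta subunits around a single gamma shaft and a membrane ring of many c subunits. Levels in FPKM are per length, so subunits are set side by side here. How reads that match several places were handled is not given, so ratios between genes are rough. Atp5b, the catalytic beta subunit, was the most abundant of all 94 members in both sexes, at 291 FPKM in males and 301 FPKM in females. Atp5a1, the alpha subunit, had 181 FPKM in males and 177 FPKM in females, while Atp5c1, the gamma subunit, had 60.7 and 62.1 FPKM, the lowest of the ATP synthase subunits. The beta transcript was thus 4.79 times the gamma transcript in male and 4.85 times in female liver, and the alpha transcript 2.98 and 2.84 times. The subunits delta and epsilon, Atp5d and Atp5e, had 79.3 and 87.4 FPKM in male liver and 78.8 and 92.2 FPKM in female liver.

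The c subunit comes from Atp5g1, Atp5g2 and Atp5g3, which encode the same mature peptide behind different import sequences. Atp5g3 had 207 FPKM in males and 208 FPKM in females, Atp5g1 73.5 and 77.3 FPKM, and Atp5g2 63.2 and 67.99 FPKM. Together they reached 344 FPKM in males and 354 FPKM in females, 5.66 and 5.69 times the gamma transcript. Atp5g3 made up 60.2% of this sum in male and 58.9% in female liver. The other 7 subunits lay close together, from Atp5o at 73.1 to Atp5j2 at 117.6 FPKM in male liver. For the same genes the range was 75.8 to 118.4 FPKM in female liver. All 15 subunit genes of complex V had ratios between 0.953, for Atp5k, and 1.07, for Atp5l, in the authors' deposited table, and none passed.

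Atp5s was the exception among genes named for this complex, though it is no subunit of the enzyme itself. It encodes the coupling factor B protein, now named Dmac2l (chromosome 12, 70825949 to 70845645, build mm9). It had 1.11 FPKM in males and 1.70 FPKM in females. The authors' deposited table gave a ratio of 0.690 and an adjusted p of 0.0384. In introns Atp5s had 0.0566 FPKM in males and 0.0674 FPKM in females, with a ratio of 0.949 and an adjusted p of 1 in the authors' deposited table. Its level was the lowest of the 16 genes named for ATP synthase.

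**Figure D5:**
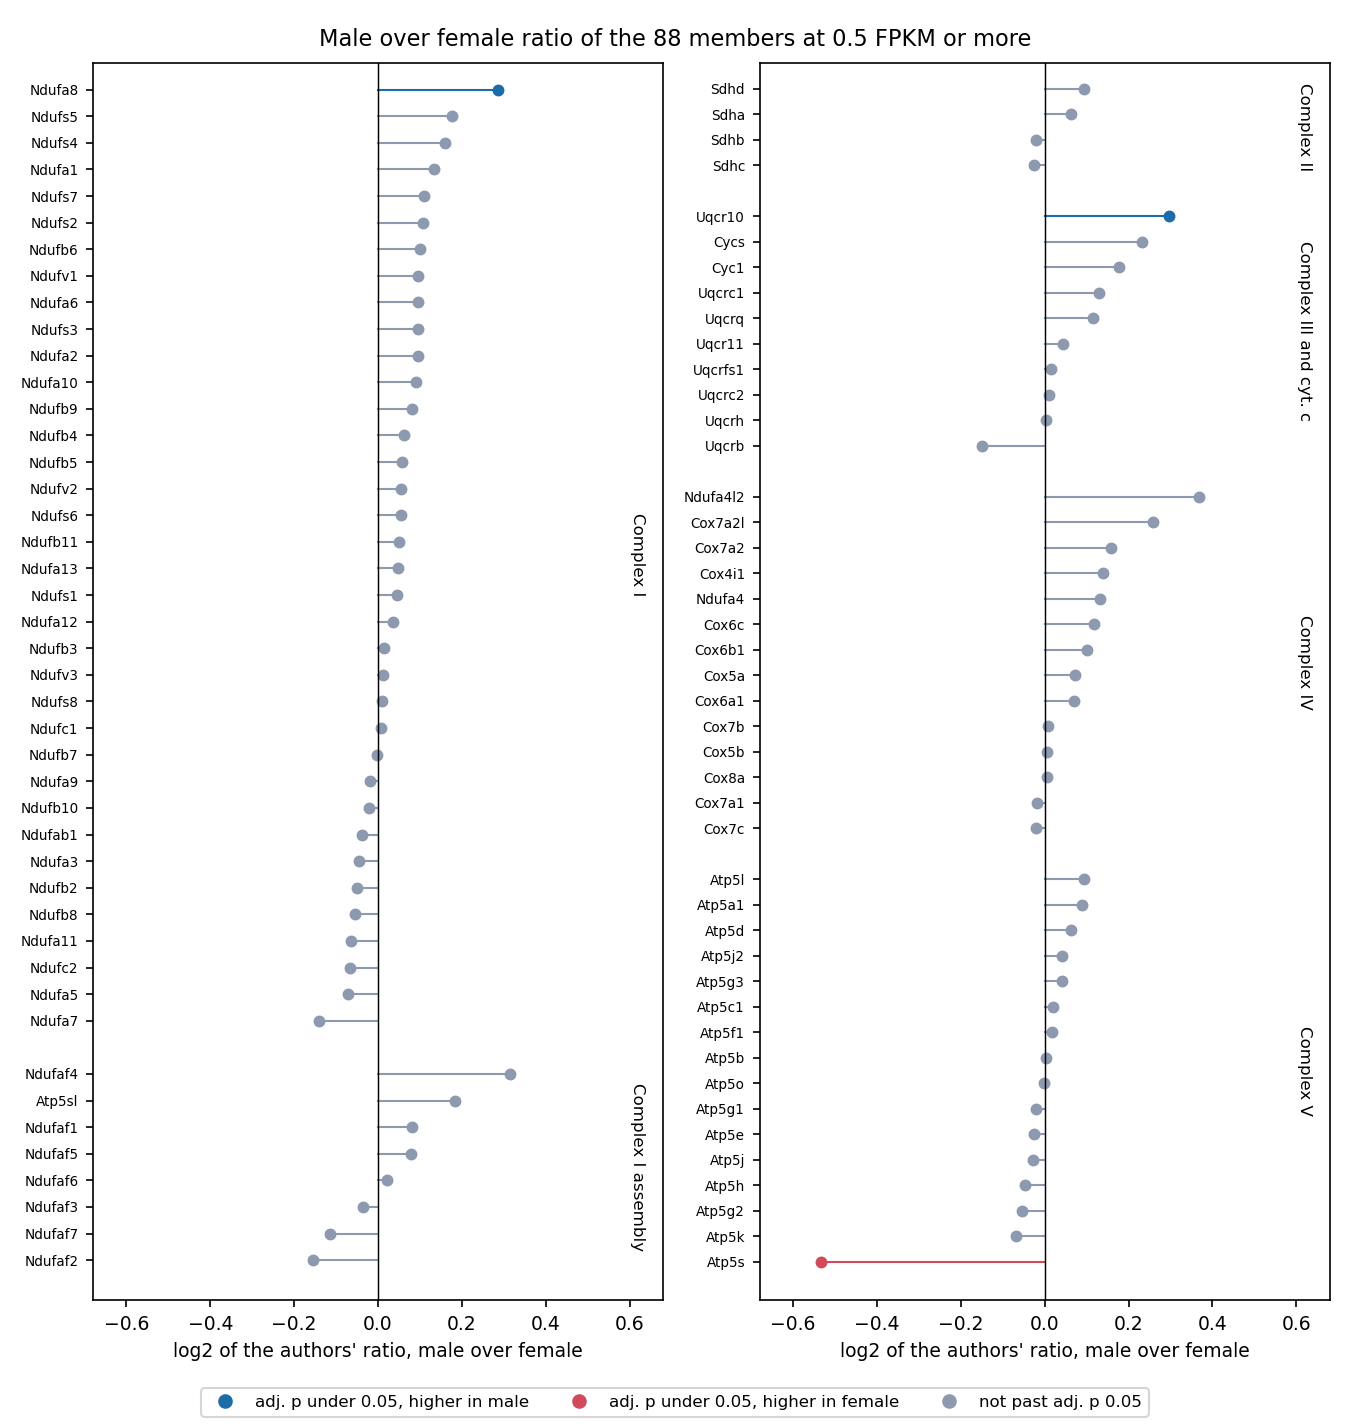
Log2 of the male over female ratio in the authors' deposited table for each of the 88 members at 0.5 FPKM or more, grouped by complex; colour marks an adjusted p under 0.05. Ndufa8 and Uqcr10 are coloured on the male side and Atp5s on the female side, and most other members lie close to 0.

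Intron reads, which can come from transcripts not yet spliced, were scarce for these genes. Their source in these poly-A selected libraries was not tested. Among measured members the median intron FPKM was 0.615% of the gene body FPKM in male and 0.612% in female liver. For all measured genes it was 1.38% and 1.47%. At a mean of at least 10 FPKM it was 0.544% and 0.558% for members and 0.809% and 0.865% for all genes. The gap was thus smaller among abundant genes. How the intron values were scaled was not stated with them. The highest intron values were those of Atp5g3 at 3.08 FPKM in males and 3.37 FPKM in females, Cyc1 at 2.98 and 2.62 FPKM and Atp5b at 2.53 and 2.74 FPKM. No member passed the threshold in introns in the authors' deposited table, beside 3.16% of 16569 genes with intron signal (1.76% toward males and 1.4% toward females). The tool for this step is not stated (edgeR is among those named), and unadjusted p-values were not used here. The lowest intron p of a member was that of Sdhb, 0.328 in the authors' deposited table, at 0.306 FPKM in males and 0.438 FPKM in females with a ratio of 0.763. For the 72 members with at least 0.1 FPKM in introns the ratio ran from that of Sdhb to 1.36 for Uqcr10 in the authors' deposited table.

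Other genes that feed, build or regulate the chain were read from lists outside the members, 209 genes in all. The authors' deposited table called 11 of these toward males and 10 toward females, and 188 did not pass. These 21 are 10% of the 209 genes, a share near the background among all genes above 0 and below the 13.8% among measured genes, so the count is no result about the lists. By list the share ran from 3.90% of 77 mitochondrial ribosomal protein genes to 33.3% of 9 genes that bring electrons to coenzyme Q. The former lies near the members' 3.19%, so a low share was not particular to the members. In the citric acid cycle list, with 14 genes, Idh2, the mitochondrial isocitrate dehydrogenase that makes NADPH, had 19.3 FPKM in males and 29.8 FPKM in females, with a ratio of 0.670 and an adjusted p of 1.18e-07 in the authors' deposited table. Ogdh, of the oxoglutarate dehydrogenase complex, was the other called gene there, at 10.2 FPKM in males and 8.62 FPKM in females with a ratio of 1.23. Suclg1, the most abundant that did not pass, had 67.4 FPKM in males and 68.2 FPKM in females. Of 10 genes of the pyruvate dehydrogenase complex and its kinases and phosphatases, Pdhx was higher in male liver (ratio 1.33) and the inhibitory kinases Pdk1 (0.744) and Pdk4 (0.653) in female liver, by the authors' deposited table.

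Enzymes that bring electrons to coenzyme Q from other fuels had 3 called genes among 9. Sqrdl, which oxidises sulfide, had 45.2 FPKM in males and 64.0 FPKM in females, with a ratio of 0.732 and an adjusted p of 3.76e-05 in the authors' deposited table. Prodh, the first enzyme of proline breakdown, had 26.5 FPKM in males and 38.2 FPKM in females (ratio 0.722), and Chdh, choline dehydrogenase, 13.7 and 11.3 FPKM (ratio 1.26), in the authors' deposited table. Among 13 genes of coenzyme Q synthesis, Coq7, a hydroxylase of the ring, had 4.69 FPKM in males and 3.41 FPKM in females, a ratio of 1.43 called by the authors' deposited table. Adck3, a kinase-like protein of the pathway, had 46.3 FPKM in males and 64.6 FPKM in females, a ratio of 0.745 that was also called in the authors' deposited table.

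Assembly factors outside the members held 5 called genes among 40. Lrpprc, which stabilises mitochondrial messenger RNAs, had a ratio of 1.28 and Cox19, a copper-handling factor, a ratio of 1.26 in the authors' deposited table. Sdhaf1, which inserts iron-sulfur clusters into complex II, had a ratio of 1.41 and Acad9, of complex I assembly, of 0.749, and Lyrm2 was also called toward males, in the authors' deposited table. Of 77 mitochondrial ribosomal protein genes, the authors' deposited table called Mrpl20 (ratio 1.27) and Mrpl53 (1.26) toward males and Mrpl15 (0.800) toward females. Higd2a, a supercomplex factor, was the called gene among 11 of inner membrane structure, with a ratio of 1.26 in the authors' deposited table. Ucp2, an uncoupling protein homolog, was the called gene among 15 carriers and partners of ATP synthase, with a ratio of 0.789 in the authors' deposited table. Of 20 regulators of mitochondrial genes Ppargc1a, the coactivator that drives mitochondrial biogenesis, passed, at 0.482 FPKM in males and 0.749 FPKM in females, with a ratio of 0.668 and an adjusted p of 0.0457 in the authors' deposited table. The most abundant genes that did not pass lay close to equal in several lists. Slc25a5, an ADP/ATP carrier of the inner membrane, had 130.5 FPKM in males and 132 FPKM in females, and Etfb, of the electron transfer flavoprotein, 123 and 139 FPKM. Pdhb, Coq9, Tmem70, Ppara, Phb2 and Mrpl12 were the corresponding genes of other lists and the lowest adjusted p of these 6 was that of Pdhb, 0.271, in the authors' deposited table. Among these most abundant uncalled genes, Cox20, a chaperone of complex IV, had the lowest adjusted p, at 30.1 FPKM in males and 38.7 FPKM in females, with a ratio of 0.810 and an adjusted p of 0.0810 in the authors' deposited table.

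Subunits encoded in mitochondria are not analysed here.

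Values of some members may be shared with other loci. By their positions 13 members overlap another gene, among them Ndufs5 with BC002163 (18.7 FPKM in males and 17.0 FPKM in females), and 6 members have more than 1 location. Many respiratory genes have processed copies elsewhere in the mouse genome, and the handling of reads that match several places is not given in the sources used here.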

How the data were processed

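Liver RNA of 3 male and 3 female pools was sequenced by the study. Per the file headers, the deposited table gives a mean FPKM for each sex, the male over female ratio after normalization, and an adjusted p-value, all by the authors, for gene bodies and for introns. The submitters' processing notes name TopHat2, featureCounts, edgeR and build mm9 without versions or the role of each. How p was adjusted was not stated. The authors' ratio exceeded the quotient of the mean FPKM by a median factor of 1.04 in measured genes, so it holds a further scaling, and it is finite where a sex is listed at 0, so no fold is given there.

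Members and lists were chosen with earlier results of these data known. Calls are the authors' adjusted p under 0.05 over the whole table. No test was computed here, since values per pool were not used, and edgeR was not rerun. Starts in the table were raised by 1 base: end minus start equalled the RefSeq gene length for 10209 genes. Accessions matched RefSeq (GRCm38.p6) for 23947 genes and all 94 members, used for names and promoters only. Library totals came from small RNA genes with a lone read in 1 pool, where the mean FPKM is fixed by gene length and total. Intervals are not given, because reads per gene are unknown.

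Genes were named if called, if at the top 3 or bottom 2 levels or either end of the ratios in a complex, if in an isoform pair, if listed at 0 or at an end of the intron values, and outside the members if called or the most abundant uncalled in a list. Printed promoters and the remaining named members were chosen after values were seen. Alternatives were a limit of 0.01 on the adjusted p, means over 1, 2 or 10 FPKM (the last added after seeing the data), subunits only, single-location members, pseudocounts of 0.01, 0.1 and 1 FPKM, quantile normalization, rescaling without the 50 most abundant genes, and introns. The motif search and normalization were tested on simulated data. Python 3.11.15, numpy 2.4.6, pandas 2.3.3 and matplotlib 3.10.9 were used.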

Additional observations from a re-analysis of the deposited data

How the results depend on the processing

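The count of 3 called members was 3 with means of 1 FPKM or more and in single-location members, 2 in subunits only and 2 with means of 10 FPKM or more, the last chosen after seeing the data. It was 0 at an adjusted p under 0.01 and 0 in introns. The members' median log2 ratio of 0.04 (all measured genes 0.01) was 0.01 after quantile normalization (all genes 0.02) and 0.04 with no filter on low values, with means of 2 FPKM or more, in subunits only, in single-location members and in introns; the intron median at 0.1 FPKM or more was 0.02, and 0.05 and 0.02 above 0 and at 0.5 FPKM or more. It reversed to -0.0028 on rescaling without the 50 most abundant genes, and to -0.0084, -0.0084 and -0.0082 with pseudocounts of 0.01, 0.1 and 1 FPKM on the mean FPKM; the medians of all genes moved alike, to -0.0328, -0.0384, -0.0372 and -0.0277. The log2 of the male over the female share of summed FPKM was -0.09 for complex I, -0.06 for complex III and -0.05 for complex IV, and without the 50 most abundant genes it was 0.0026, 0.027 and 0.039. For complex I assembly factors and complexes II and V it was -0.09, -0.11 and -0.12, against -0.0024, -0.02 and -0.03 without those genes. Each complex moved by the same 0.0888, since only the common denominator changed. Ndufa8, Uqcr10 and Atp5s kept their direction under quantile normalization, on rescaling and in introns, where none passed. A pseudocount on both means cannot turn a direction, and the scalings moved these ratios by little beside their size. The kept direction therefore tells little. The log2 ratio of Atp5s was -0.53 with the authors' scaling and -0.36 with a pseudocount of 1 FPKM, and its introns were below 0.1 FPKM in both sexes. No paired analysis was possible because the table gives no values per pool, and leaving out each pool was not run for the same reason. Depth limits the restricted isoforms, whose means rest on few reads.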
